A study of Mus musculus with 72 samples.

Results

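The response of the suprachiasmatic nucleus (SCN) to a methionine- and choline-deficient (MCD) diet was examined in the subjective night. The SCN, a pair of small cell groups at the base of the hypothalamus, is the master pacemaker of the body's daily rhythms. The members were the 12 libraries labelled SCN with circadian time (CT) 16 or 20, out of 72 libraries in the series, and they were chosen by their labels alone. They were 6 libraries from mice on MCD and 6 from mice on an isocaloric control diet, 3 per diet and time. In each group of 3, the numbers 1 and 2 were males and the number 3 was a female.

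All mice were C57BL/6 (C57BL/6J in the labels' protocol), were 8 to 12 weeks old when purchased, and were singly housed with free access to food and water. Both diets were given for 11 days: 10 days under a light-dark cycle, then 1 day in constant darkness, on which the mice were killed. The groups differed in diet and time only, and no group carried an allele or a drug. The SCN was cut by laser from 23 stained coronal sections of 25 µm, so a library holds all cells of that area, neurons, glia and vessels together. Polyadenylated RNA was sequenced with a stranded kit, and the deposited values were whole-number counts per gene. Replicates are mice per the series' design text.

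Methionine is turned into S-adenosylmethionine (SAM), the methyl donor for DNA, RNA, histones and phospholipids, by methionine adenosyltransferase. Outside the liver the catalytic subunit of this enzyme is MAT2A. Choline can supply methyl groups through betaine and is also the head group of phosphatidylcholine, so a diet without methionine and choline removes 2 dietary sources of methyl groups. In SCN neurons, CLOCK and BMAL1 switch on the Per and Cry genes, whose proteins later repress them, and the neuropeptides VIP, AVP and GRP carry time signals between cells.

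The libraries held 23.3 to 72.4 M counts, with means of 49.5 ± 18.4 M on control and 46.9 ± 11.3 M on MCD (SD, n = 6 each; exact two-sided permutation p = 0.725). One library stood apart: the control female at CT20 had the fewest counts, 804 of the 15759 listed genes at 0 against 24 to 230 in the other 11, and a median correlation with the others of 0.872 against 0.928 to 0.963. The MCD male 2 and the MCD female at CT20 came next, with 186 and 230 genes at 0. Mat2a, Gpr17 and the control sums of oligodendrocyte and blood genes are therefore also given without the control female. For leading genes where it was the outermost control library, the range over fits without single libraries is given. Sex was labelled female for the libraries with number 3, while the protocol text speaks of males only. Xist, the RNA of the inactive X chromosome, lay at 1081 to 1963 CPM (counts per M counts of the library) in the 4 female libraries and at 0.778 to 20.9 CPM in the 8 males, with 0 libraries against their label. Defining genes of the SCN were present in each library: Vip at 909 to 1450 CPM, Avp at 142 to 362 CPM, Six6 at 150 to 245 CPM and Lhx1 at 90.4 to 158 CPM. Pomc, Th and Npy, which mark neighbouring hypothalamic neurons, stayed at or below 5.82, 6.09 and 8.48 CPM, while Oxt, of nearby oxytocin neurons, ran from 27.3 to 149 CPM. Slc17a7, of cortical neurons, reached 18.3 CPM in 1 control library and lay at or below 4.82 CPM on MCD. All levels are CPM scaled over the 36 SCN libraries of the series, and changes are log2 values of MCD minus control from the fitted model.

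The main comparison asked which SCN genes differed between the diets at CT16 and CT20, with time as a covariate. Of 15758 genes tested, 2 (0.0127%) were called by edgeR's quasi-likelihood test at a Benjamini-Hochberg adjusted p under 0.05: Mat2a, which encodes the catalytic subunit of methionine adenosyltransferase 2, rose, and Gpr17, a receptor gene of the oligodendrocyte lineage, fell. An unadjusted p under 0.05 was found for 367 genes (2.33%), 200 higher (1.27%) and 167 lower (1.06%) on MCD. limma and DESeq2 called the same 2 genes, with 509 and 407 at an unadjusted p under 0.05, so in the lists that follow Mat2a is the 1 member called by any of the 3 tools. A change of at least 1 log2 in size was estimated for 135 genes (0.857%), or for 110 (0.706%) of those with a mean of at least 1 CPM, and 50.5% of all genes were higher on MCD. The median gene had a change of 0.00161 log2, and the median standard error of genes with a mean of at least 1 CPM was 0.133 log2. For 63.8% of genes the whole 95% confidence interval of the change lay between -0.5 and 0.5 log2. Across all genes, the changes at CT16 and at CT20 had a Pearson r of 0.0424, and 49.9% had the same sign at both times. This correlation is across genes, which are not independent replicates.

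**Figure D1:**
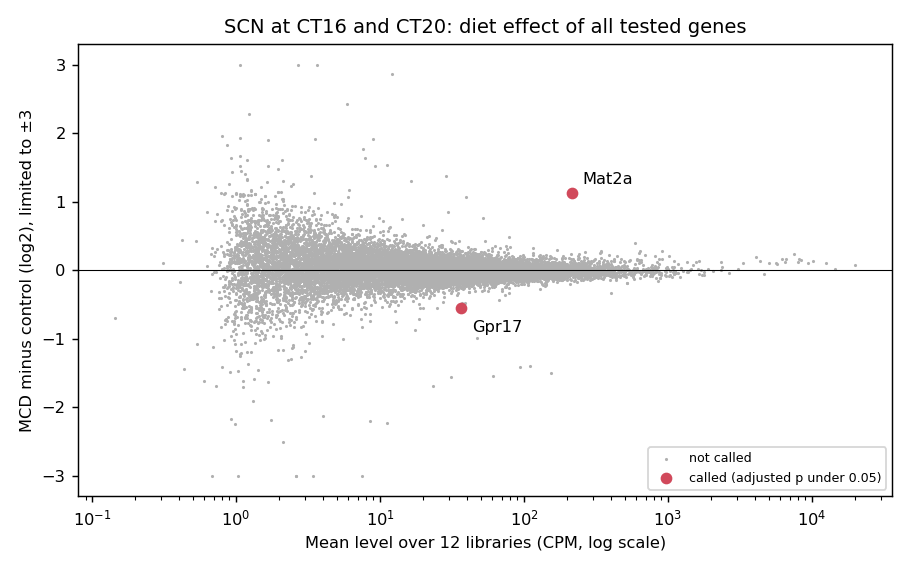
Diet effect in the SCN at CT16 and CT20 (vertical axis, log2 change of MCD minus control, limited to ±3) against the mean level over 12 libraries (horizontal axis, CPM on a log scale), 1 point per tested gene. Mat2a (1.13 log2 higher) and Gpr17 (a change of -0.56) are the 2 called genes; genes of a level like that of Gpr17 reach changes as large without being called.

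Mat2a (ENSMUSG00000053907) has a feature in its RNA that bears on its level. In mammals the methyltransferase METTL16 binds hairpins in the 3′ untranslated region of this transcript through the sequence UACAGAGAA, and this contact is known to raise splicing of the last intron and the amount of mature RNA when SAM is low. The letters TACAGAGAA were searched on the sense strand of 1 transcript per protein-coding gene, with overlapping matches allowed. The transcript Mat2a-201 (2804 bases, GENCODE M21, build GRCm38) held 5 copies, all after its stop codon, in an untranslated region of 1494 bases. They began 40, 824, 1003, 1118 and 1337 bases after the stop codon. They are shown with 10 bases on each side because they are the known contact sequence of the regulated transcript, with the motif in capitals.
Mat2a copy 1: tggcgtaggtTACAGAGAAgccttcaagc
Mat2a copy 2: ccttgtgataTACAGAGAAgtcacagggc
Mat2a copy 3: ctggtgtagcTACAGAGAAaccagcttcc
Mat2a copy 4: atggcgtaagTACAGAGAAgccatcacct
Mat2a copy 5: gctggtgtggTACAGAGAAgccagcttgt
At least 1 copy was found in 863 of 21866 transcripts (3.95%), and 1 transcript, that of Mat2a itself, held 5. Of 1270 transcripts whose 3′ untranslated region was within 10% of the length of that of Mat2a, 29 (2.28%) held at least 1 copy in that region and 2 held at least 2. The match is a description of the sequence, and the counts per gene do not measure binding or splicing.

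The 3 control libraries at CT16 had Mat2a levels of 134, 118 and 144 CPM, and those at CT20 had 155, 125 and 134 CPM. On MCD the levels were 296, 271 and 320.2 CPM at CT16 and 366, 287 and 234 CPM at CT20. The lowest MCD library lay above the highest control library at both times. Females were the highest of their 3 libraries at CT16 on both diets, while at CT20 the control female lay between its males and the MCD female was the lowest. Library means were 135 ± 13.2 CPM on control and 296 ± 44.9 CPM on MCD (SD, n = 6 each), from 3173 to 17728 counts per library. Mat2a rose by 1.13 ± 0.10 log2 (SE; 95% confidence interval 0.92 to 1.34; a 2.19-fold level), with an edgeR adjusted p of 8.83e-05. The change was 1.16 ± 0.15 at CT16 (edgeR adjusted p = 0.0203) and 1.099 ± 0.15 at CT20 (0.0395), and the difference between the times was -0.06 ± 0.21 log2 (unadjusted p = 0.76). Without the control female at CT20 the rise over both times was 1.13 log2 (edgeR adjusted p = 0.000332), and without replicate number 2 of each group it was 1.099 log2 and not called (0.0951). The gene overlaps Particl, an antisense RNA on the opposite strand, and whether counting used the strand is not given in the sources used here. Particl itself was at 22.5 ± 3.14 and 22.6 ± 3.76 CPM, a change of 0.00 ± 0.13 log2.

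The calls at the single times depended on which libraries were kept, while the change of Mat2a kept its sign. Without any 1 library it ran from 1.086 to 1.239 log2 at CT16 and from 0.915 to 1.238 log2 at CT20. Leaving out single libraries of CT16 left the change at CT20 at 1.096 to 1.099 log2, although its call was lost. At CT16 the call was lost without any one of the control libraries 1, 2 and 3 or the MCD libraries 1, 2 and 3 of that time, or without MCD 2 at CT20 (edgeR adjusted p from 0.0559 to 0.188), and without replicate numbers 1 (0.0887) and 2 (1). At CT20 it was lost without any one of the 6 libraries of CT16, the 3 control libraries of CT20 or MCD 2 at CT20 (0.0618 to 0.305), with a term for sex (0.0852), with library totals in place of TMM (0.0541), from the 6 libraries of that time alone (0.983) and without replicate numbers 1 (0.373) and 2 (1).

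Over the day Mat2a behaved differently on the 2 diets. In controls the group means stayed between 132 ± 13.4 CPM at CT16 and 164 ± 6.83 CPM at CT4. On MCD they were 143 ± 10.9 at CT0, 119 ± 14.3 at CT4, 111 ± 13.8 at CT8, 182 ± 42.3 at CT12, 296 ± 24.4 at CT16 and 296 ± 66.7 CPM at CT20 (SD, n = 3 each). The changes in the fit of all 36 libraries were 0.08 at CT0, -0.46 at CT4, -0.41 at CT8 and 0.40 at CT12, each with an edgeR adjusted p of at least 0.62, against 1.16 (3.74e-05) and 1.099 (0.000124) at CT16 and CT20. The edgeR unadjusted p was 0.0023 at CT4, 0.0059 at CT8 and 0.0065 at CT12. The libraries were apart in the other direction at CT4 (156 to 170 CPM on control, 109 to 136 CPM on MCD) and at CT8 (137 to 156 and 98.7 to 126 CPM). The highest of the other 30 libraries, at 212 CPM, was an MCD library, and it lay below the lowest MCD library of the night, at 234 CPM.

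**Figure D2:**
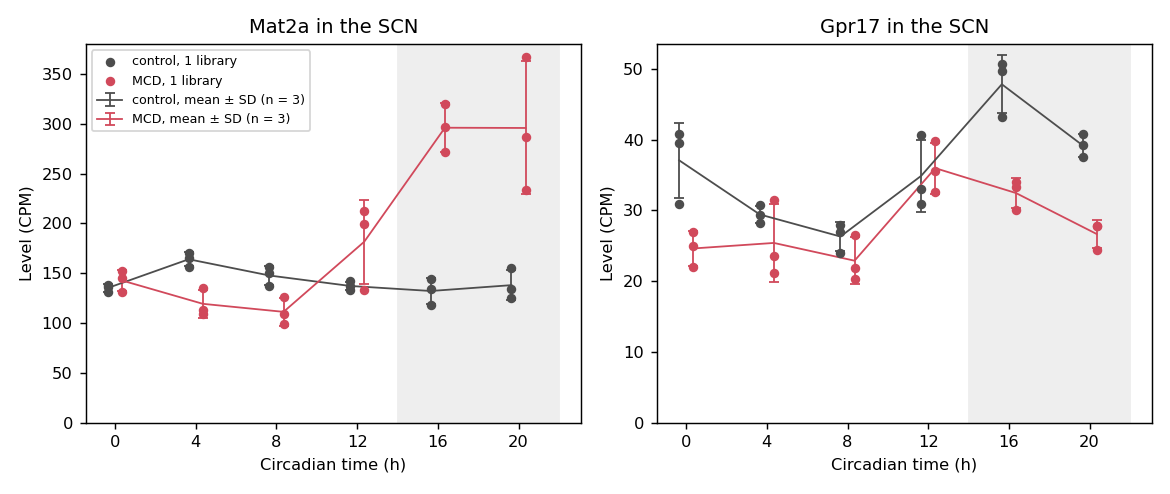
Levels of Mat2a (left) and Gpr17 (right) in CPM (vertical axis) at 6 circadian times (horizontal axis, h) in the SCN, control in grey and MCD in red. Points are single libraries, lines join group means, bars are SD (n = 3) and shading marks CT16 and CT20. At these 2 times Mat2a lies at 118 to 155 CPM on control and 234 to 366 CPM on MCD; it is also apart by diet at CT4 and CT8, with MCD lower, and Gpr17 is apart at CT16, CT20 and CT0.

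Whether the night response differed from that at the other 4 times was tested in the fit of all 36 libraries. Mat2a was the 1 gene called by edgeR of 15759 (0.00635%), limma called 1 gene and DESeq2 called 12. The change of Mat2a at CT16 and CT20 exceeded the mean change at CT0, CT4, CT8 and CT12 by 1.23 ± 0.12 log2 (edgeR adjusted p = 3.54e-07). Its mean change at those 4 times was -0.10 ± 0.07 log2 (adjusted p = 1). That mean joins lower estimates on MCD at CT4 and CT8 with a higher one at CT12. For the night minus other times difference, an unadjusted p under 0.05 was found for 613 genes (3.89%). At the other 4 times, edgeR called 0 genes for diet, with 726 at an unadjusted p under 0.05 (4.61%), and no other tool was run on that mean. Between CT16 and CT20, edgeR and limma called 0 genes with a different diet effect, with 355 (2.25%) and 438 at an unadjusted p under 0.05, and DESeq2 called 8, so no gene is named for it.

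The rest of the methyl cycle was then examined. The list held 29 genes, of which 22 were tested, and 1 of 22 was called, Mat2a, against 0.0127% of all genes. The other 21 had changes from -0.55 (Cth) to 0.21 (Adi1), and the list had 11 higher and 11 lower members, with a median of -0.00 log2 against 0.00 for all genes. Mat2b, the regulatory subunit of the same enzyme, was at 61.5 ± 3.76 CPM on control and 61.6 ± 8.86 CPM on MCD (-0.01 ± 0.08 log2). Mettl16 was at 80.4 and 75.8 CPM (-0.08 ± 0.07). Ahcy, which hydrolyses the S-adenosylhomocysteine that methylation leaves, ran from 35.6 to 46.3 CPM on control and from 36.7 to 48.4 CPM on MCD (0.06 ± 0.10; 95% interval -0.15 to 0.27). Mtr, which remethylates homocysteine, had an estimate of -0.16 ± 0.15, and Cbs, which passes it on to cysteine, by 0.06 ± 0.13 log2. Sardh, the sarcosine dehydrogenase, was at 12.9 and 9.32 CPM (-0.47 ± 0.17, unadjusted p = 0.0146, edgeR adjusted p = 1), and Enoph1 of the methionine salvage pathway had an estimate of -0.19 ± 0.09 (unadjusted p = 0.0482). The summed level of the list was 1484 ± 47.5 CPM on control and 1648 ± 87.4 CPM on MCD (exact two-sided permutation p = 0.005, the smallest that 400 arrangements can give; 0.115 adjusted over 23 measures). Mat2a alone differed by 161 CPM between the diets.

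Choline genes were tested because the diet lacks choline too. Of 22 listed genes 19 were tested and 0 were called by edgeR, limma or DESeq2, with 1 at an unadjusted p under 0.05 in edgeR. Selenoi, an ethanolamine phosphotransferase, was at 57.7 and 47.2 CPM (-0.29 ± 0.11 log2, unadjusted p = 0.0214). Chka, the choline kinase, was at 25.1 and 25.4 CPM (0.01 ± 0.10), Pcyt1a, which makes CDP-choline, at 42.0 and 41.9 CPM (-0.00 ± 0.11), and Pemt, which makes phosphatidylcholine with SAM, at 5.58 and 4.72 CPM (-0.22 ± 0.25). The choline transporter Slc44a1 had an estimate of -0.00 ± 0.12. For 14 of the 19 genes the 95% interval stayed within ±0.5 log2.

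The amino acid stress response, in which the kinase GCN2 senses uncharged tRNA and ATF4 switches on genes of amino acid uptake and synthesis, had 0 of 26 tested genes called by edgeR, limma or DESeq2 and 0 at an unadjusted p under 0.05 in edgeR. The list median was -0.06 log2, with 10 genes higher and 16 lower. Asns, the asparagine synthetase gene, ran from 43.3 to 57.3 CPM on control and from 40.6 to 53.3 CPM on MCD (-0.16 ± 0.09). Atf4 was at 139 ± 12.4 and 151 ± 15.8 CPM (0.12 ± 0.08), Slc7a11, the cystine transporter, at 28.05 and 27.1 CPM (0.01 ± 0.16), Ddit3 at 16.6 and 17.98 CPM (0.11 ± 0.13) and Psat1, of serine synthesis, at 65.2 and 65.0 CPM (0.00 ± 0.09). The libraries of the 2 diets overlapped for Asns and for Atf4, and the 95% interval of Asns was -0.36 to 0.04 log2.

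The same times and diets in the liver, fitted on its own 12 libraries, set these values in place. In liver 5501 of 18670 genes (29.5%) were called by edgeR, 2887 higher and 2614 lower, and 2461 and 2495 were called without replicate numbers 1 and 2. With library totals in place of TMM, 8113 liver genes were called, 7214 higher and 899 lower. Mat2a had 65.3 ± 11.3 CPM on control and 268 ± 29.6 CPM on MCD in liver (2.03 ± 0.09 log2, edgeR adjusted p = 1.46e-07). Asns was at 1.28 and 7.66 CPM in liver (2.52 ± 0.56, 0.0066) and Ahcy at 1356 and 870.3 CPM (-0.66 ± 0.15, 0.00515). Fos rose there by 2.79 ± 0.29 log2 (4.06e-05) and Arntl, which encodes BMAL1, by 0.41 ± 0.07 (0.001). Gpr17 was near 0 in liver, at 0.393 and 0.0863 CPM. The tissues were normalized apart and the difference between them was not tested.

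Gpr17 (ENSMUSG00000052229) is transcribed in committed oligodendrocyte precursors and newly formed oligodendrocytes and is switched off as they mature. Its levels on control were 49.6, 43.1 and 50.7 CPM at CT16 and 39.2, 40.8 and 37.5 CPM at CT20. On MCD they were 34.0, 30.01 and 33.3 CPM at CT16 and 24.4, 27.8 and 27.8 CPM at CT20. No MCD library reached the lowest control library, at either time or over both. The means were 43.5 ± 5.47 and 29.6 ± 3.65 CPM (SD, n = 6 each), from 710 to 3682 counts per library. Gpr17 fell by 0.56 ± 0.08 log2 (95% interval -0.73 to -0.39, a 0.680-fold level), with an edgeR adjusted p of 0.0306. The change was -0.56 ± 0.12 at both CT16 and CT20, where edgeR did not call it (adjusted p = 1 and 0.998) and DESeq2 did (adjusted p = 0.0234 and 0.0267). In bulk tissue, fewer cells of a type and less RNA per cell cannot be told apart. The call was lost without any one of 10 libraries (edgeR adjusted p from 0.0682 to 0.166): control 1 and 3 at CT16, control 1 and 2 at CT20, and each of the 6 MCD libraries. It was also lost when the change was taken as the mean of both times in a model of 4 groups (0.0716). It was kept without control 2 at CT16 (0.0454) and without the control female at CT20 (0.0412), while the change itself stayed between -0.59 and -0.53 log2 without any 1 library.

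The fall of Gpr17 was not shown to be peculiar to the night. Its change was -0.59 at CT0, -0.21 at CT4, -0.20 at CT8 and 0.05 at CT12, each missing the threshold in the fit of all 36 libraries (edgeR adjusted p of at least 0.198). The change at night minus the mean change at the other 4 times was -0.32 ± 0.12 log2 (unadjusted p = 0.0116, edgeR adjusted p = 0.998). In controls its level was highest at CT16 (47.8 ± 4.07 CPM) and lowest at CT8 (26.3 ± 2.06 CPM, n = 3 each). Gpr17 lies in a region where the gene Lims2 runs on the opposite strand, and Lims2 was at 9.04 ± 1.93 and 7.67 ± 2.53 CPM (-0.23 ± 0.25 log2).

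Myelin and oligodendrocyte genes, a list that does not hold Gpr17, were mostly at lower levels on MCD, but none of the 22 was called by edgeR, limma or DESeq2. Of the 22, 18 were lower, 17 of them at both times, against 24.3% of all genes that were lower at both. The median was -0.19 log2, and 5 lower genes and 1 higher gene had an unadjusted p under 0.05. The confidence interval stayed within ±0.5 log2 for 11 of the 22. Mog, on the outer face of myelin, was at 16.7 and 12.6 CPM (-0.41 ± 0.15, unadjusted p = 0.0169), Cnp at 149 and 131 CPM (-0.20 ± 0.07, 0.017), Cldn11, of its tight junctions, at 38.6 and 30.6 CPM (-0.33 ± 0.15, 0.0431) and Olig2, a factor of the lineage, at 29.7 and 24.7 CPM (-0.27 ± 0.11, 0.0334). Mbp was at 896 and 798 CPM (-0.16 ± 0.10) and Opalin at 6.07 and 4.14 CPM (-0.53 ± 0.26). Of the genes of precursor cells, Pdgfra was at 25.8 and 23.3 CPM (-0.14 ± 0.14) and Cspg4, also a gene of pericytes, at 5.23 and 7.44 CPM (0.52 ± 0.20, unadjusted p = 0.0217). Bcas1, another gene of newly formed oligodendrocytes, is not on the list and is named here because it was among the lower genes with the smallest p. It was at 88.2 ± 13.8 and 69.8 ± 6.55 CPM (-0.34 ± 0.10, unadjusted p = 0.00357). At the other 4 times 19 of the 22 listed genes were lower as well.

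The summed level of the list was 2340 ± 265 CPM on control (2076 to 2744) and 2067 ± 205 CPM on MCD (1873 to 2454), with overlap between the diets (exact two-sided permutation p = 0.055; 0.345 adjusted over 23 measures). Of 8 listed blood genes 5 were tested, all 5 were lower on MCD, 4 of them at an unadjusted p under 0.05, with a median of -1.42 log2, and 0 were called. They were lower at the other 4 times too (5 of 5). Their summed level ran from 183 to 1518 CPM on control and from 92.1 to 395 CPM on MCD (exact permutation p = 0.06; 0.345 adjusted). Without the control female at CT20 the control means were 2332 ± 295 CPM for oligodendrocyte and 654 ± 535 CPM for blood genes. The control library at 1518 CPM was male 2 at CT16, and the next highest control was at 759 CPM. Without single libraries the median of the blood genes ran from -1.68 to -0.91 log2. The microglia sum was at 299 ± 23.2 and 279 ± 22.7 CPM, the astrocyte sum at 9976 ± 1270 and 10360 ± 594 CPM and the endothelial and mural sum at 464 ± 51.4 and 433 ± 46.1 CPM. The part of cell make-up in the level of Gpr17 was not tested.

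**Figure D3:**
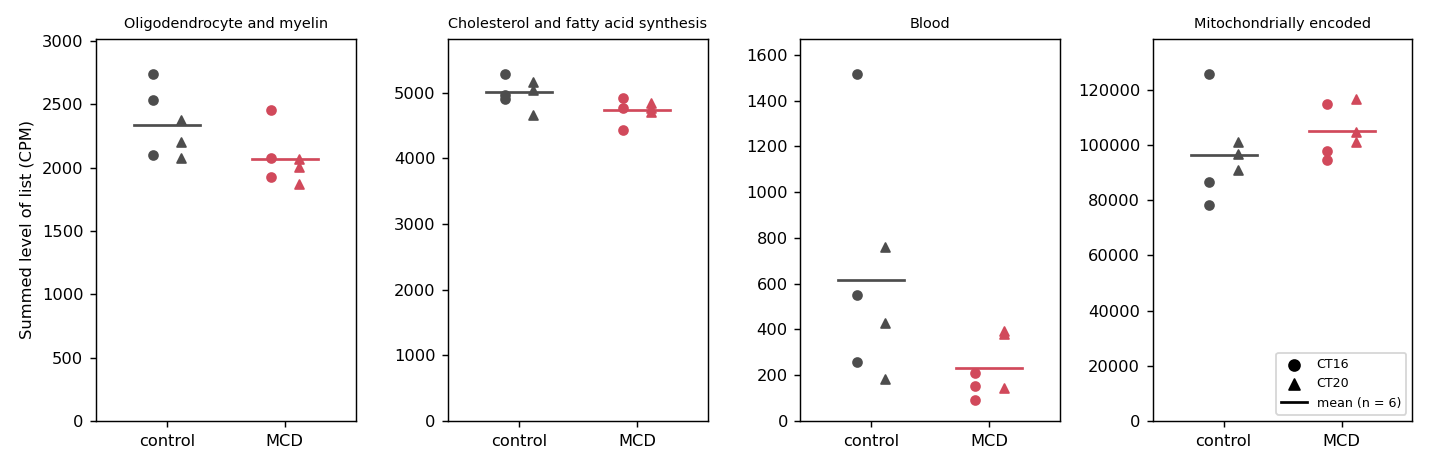
Summed level of 4 gene lists (vertical axes, CPM) in the 12 night libraries by diet (horizontal axis), circles for CT16, triangles for CT20 and lines for means (n = 6). Sums overlap between the diets in each panel, and the control library at 1518 CPM sets the upper end of the blood genes.

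Genes of cholesterol and fatty acid synthesis, which serve myelin and membranes, were mostly at slightly lower levels. Of 30 tested, 28 were lower, 18 of them at both times (24.3% of all genes were), and 22 at the other 4 times, with a median of -0.11 log2, and 0 were called by edgeR, limma or DESeq2. Of 4 genes with an unadjusted p under 0.05, 3 are given: Fdft1, the squalene synthase (144 and 124 CPM, -0.21 ± 0.09), Nsdhl (37.2 and 31.3 CPM, -0.24 ± 0.10) and Acaca, the first enzyme of fatty acid synthesis (65.3 and 55.1 CPM, -0.24 ± 0.10). Insig1 and Fads2 were the 2 higher genes, at 0.03 and 0.02 log2. For 29 of the 30 genes the 95% interval stayed within ±0.5 log2. The summed level was 5003 ± 217 and 4738 ± 170 CPM (exact two-sided permutation p = 0.06; 0.345 adjusted over 23 measures).

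The core clock was next. Of 25 tested genes 0 were called by edgeR, limma or DESeq2 and 0 had an unadjusted p under 0.05 in edgeR, with changes from -0.20 (Per2) to 0.23 (Arntl2) and 20 of the 25 intervals within ±0.5 log2. Per1 had 27.8 to 37.7 CPM on control and 27.7 to 38.05 CPM on MCD (0.15 ± 0.10). Per2 had 44.6, 26.4 and 37.2 CPM on control at CT16 and 28.3, 27.1 and 29.3 CPM on MCD, and lay at 14.8 to 28.5 and 17.6 to 23.3 CPM at CT20 (-0.20 ± 0.16 over both times). Cry1 was at 68.5 ± 8.0 CPM at CT16 and 39.1 ± 8.51 CPM at CT20 on control and at 61.7 ± 7.44 and 39.8 ± 7.9 CPM on MCD (n = 3 each), and its diet effect was -0.07 ± 0.12. Nr1d1, a repressor of Bmal1, ran from 61.2 to 135 CPM on control and from 58.6 to 143 CPM on MCD (0.06 ± 0.11). Arntl was at 72.6 ± 8.38 and 70.1 ± 8.6 CPM (-0.05 ± 0.10) and Dbp, an output gene, at 54.1 ± 13.9 and 62.3 ± 9.25 CPM (0.20 ± 0.16). The diets overlapped for each of these genes.

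Signals of SCN neurons showed 0 called genes of 21 tested, by edgeR, limma or DESeq2, and 0 at an unadjusted p under 0.05 in edgeR. For 13 of the 21 the confidence interval stayed within ±0.5 log2, so larger changes were not excluded for the rest. Vip, which keeps SCN neurons in step, was at 1045 ± 70.8 CPM on control and 1150 ± 187 CPM on MCD (0.13 ± 0.10), with both the highest and the lowest library, 1450 and 909 CPM, on MCD. Avp, the peptide of the dorsal SCN, was at 229 ± 62.0 and 226 ± 75.5 CPM (-0.01 ± 0.19). Grp, of light-receiving neurons, was at 68.4 ± 17.9 and 72.5 ± 8.84 CPM (0.10 ± 0.13), and Vipr2, the VIP receptor, at 314 and 300 CPM (-0.07 ± 0.10). Prok2, an output peptide of the day, was close to its daily low, at 0 to 1.31 CPM on control and 0.669 to 1.91 CPM on MCD (0.74 ± 0.79), so the spread between libraries left a diet effect undetermined. Among the 16 tested factors and markers of SCN identity 0 were called, and Rgs16 and Rasl11b had an unadjusted p under 0.05.

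Genes that answer to neural activity or hormones held no called gene. Of 23 immediate-early genes 0 were called, with 1 at an unadjusted p under 0.05. The confidence interval of the change stayed within ±0.5 log2 for 8 of the 23, so larger changes were not excluded for the rest. Fos ran from 7.32 to 21.1 CPM on control and from 6.64 to 20.3 CPM on MCD (-0.08 ± 0.25). Of 23 genes of the glucocorticoid and fasting response 17 were higher and 0 were called (median 0.13 log2). Their confidence interval stayed within ±0.5 log2 for 11 of the 23. At both times 11 of the 23 were higher, against 25.6% of all genes, and at the other 4 times 22 were. Sult1a1, the highest of them at 0.42 log2 and chosen after its values were seen, was called without replicate number 3. Fkbp5, a glucocorticoid target, had 22.7 to 32.5 and 27.2 to 32.7 CPM (0.14 ± 0.11). Of 20 heat shock genes 18 were lower (median -0.06) and of 19 genes of the unfolded protein response 16 were lower (-0.06), with 0 called in each. At both times 4 of the 20 and 5 of the 19 were lower, and the medians at CT16 alone were 0.04 and 0.01 log2. All 15 mitochondrially encoded genes tested were higher on MCD, from 0.07 (mt-Co1) to 0.24 (mt-Rnr2) log2, and 0 were called or had an unadjusted p under 0.05. At both times 13 of the 15 were higher, against 25.6% of all genes, and at the other 4 times 11 were lower. Their summed level was 96550 ± 16480 and 105100 ± 9171 CPM (exact two-sided permutation p = 0.315; 0.805 adjusted over 23 measures).

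**Figure D4:**
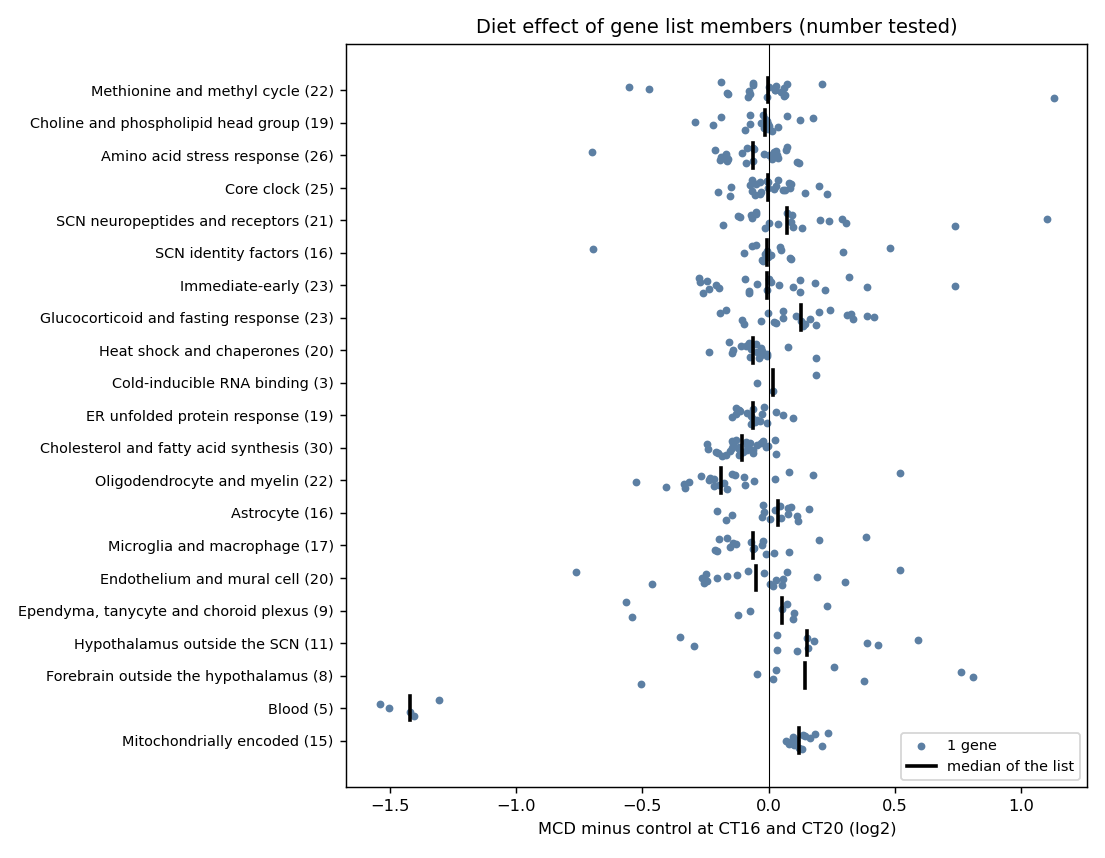
Log2 change of MCD minus control at CT16 and CT20 (horizontal axis) for the tested members of 21 gene lists (vertical axis, number tested in brackets), with each list's median as a black bar. Mat2a, at 1.13 in the methyl cycle list, is the 1 called member, and most medians lie close to 0.

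Since the test called 1 gene in each direction, the genes with the next smallest unadjusted p-values were taken to complete 10 in each direction, among those with a mean of at least 1 CPM and the same sign at both times. The added genes missed the threshold (edgeR adjusted p = 1 for each), and the values of 16 of them are given as measurements only. On the lower side stood Bcas1 of the oligodendrocyte lineage, given above. Ednrb, the endothelin receptor B, had 132 to 154 CPM on control and 102 to 131 CPM on MCD (-0.27 ± 0.07, unadjusted p = 0.00115), with no overlap between the diets. Igsf1, a membrane protein of the thyroid axis, had 71.6 to 86.8 and 53.0 to 67.1 CPM (-0.30 ± 0.08, 0.00134), and Snrnp40, of the spliceosome, 26.9 to 39.6 and 23.0 to 26.6 CPM (-0.34 ± 0.10, 0.00435), both without overlap. At the other 4 times Igsf1 had a difference of -0.31 ± 0.06 log2 (edgeR adjusted p = 0.0754), Fbln5 by 0.53 ± 0.13 (0.226) and Bcas1 by -0.38 ± 0.10 (0.354). Separation of all 6 MCD from all 6 control libraries was found for 25 genes (0.159%), 15 with MCD above (0.0952%) and 10 with MCD below (0.0635%).

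Further lower genes overlapped between the diets. Atic, of purine synthesis, a pathway that uses folate-bound carbon units, was at 61.9 ± 7.03 and 50.0 ± 5.51 CPM (-0.31 ± 0.09). Osbpl11, of the oxysterol-binding family, was at 19.5 ± 2.04 and 14.96 ± 2.01 CPM (-0.38 ± 0.12). Hyal1, a hyaluronidase, was at 4.33 ± 1.82 and 2.08 ± 0.43 CPM (-1.06 ± 0.31). Pcdhac1 was at 46.1 ± 19.9 and 15.8 ± 7.42 CPM (-1.57 ± 0.39, unadjusted p = 0.00223), with 1 control library, male 2 at CT20, at 15.7 CPM among the MCD values. Pcdhac1 shares exons with the other protocadherin alpha genes, and Hyal1 overlaps Hyal3 and Naa80 on its own strand, so reads may be split between them and both values are uncertain. The control female at CT20 was the highest control library for Pcdhac1, Hyal1, Osbpl11 and Snrnp40, and the lowest for Igsf1. Without single libraries Pcdhac1 ran from -1.81 to -1.30 log2 and Hyal1 from -1.18 to -0.85. Osbpl11 then ran from -0.45 to -0.33, Snrnp40 from -0.39 to -0.27 and Igsf1 from -0.33 to -0.26 log2.

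On the higher side, Fbln5, which encodes the elastic fibre protein fibulin 5, had 55.2 to 89.0 CPM on control and 79.9 to 113 CPM on MCD (0.49 ± 0.12 log2, unadjusted p = 0.000801). The control female at CT16 was the control library within the MCD range. Rgs16, a regulator of G protein signals enriched in the SCN, had means of 151 ± 24.5 and 188 ± 42.4 CPM (0.30 ± 0.08, 0.00133); at CT16 its levels were 122 to 142 and 143 to 166 CPM, and at CT20 153 to 186 and 205 to 236 CPM, so the diets were apart within each time. Vegfa, the vascular growth factor, had 21.4 to 37.4 and 35.9 to 47.9 CPM (0.42 ± 0.12), with changes of 0.18 at CT16 and 0.67 at CT20. Zfp35 was at 23.5 ± 3.54 and 30.2 ± 3.77 CPM (0.37 ± 0.11) and Cdk5rap1, which modifies mitochondrial tRNA, at 7.45 ± 0.92 and 10.6 ± 1.65 CPM (0.50 ± 0.15). Gm43597, Gm5141 and Gm15500, gene models without an assigned role, had estimates of 0.56 ± 0.15, 0.51 ± 0.15 and 0.24 ± 0.07 log2. The control female at CT20 was the lowest control library for Vegfa, Zfp35 and Gm43597, and the highest for Gm5141 and Gm15500. Without single libraries Vegfa ran from 0.33 to 0.49, Zfp35 from 0.33 to 0.43 and Gm43597 from 0.49 to 0.64 log2. Gm5141 then ran from 0.43 to 0.58 and Gm15500 from 0.18 to 0.27 log2.

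**Figure D5:**
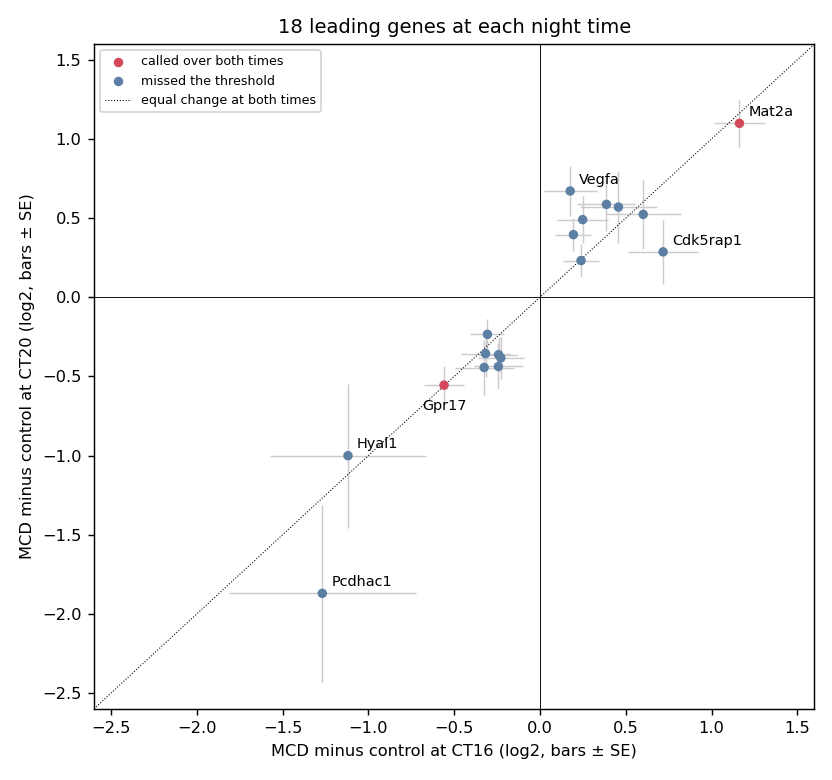
Log2 change of MCD minus control at CT16 (horizontal axis) and CT20 (vertical axis) with bars of ± SE for 18 of the 20 leading genes. Points lie in the 2 matching quadrants because the rule asks for the same sign at both times. Mat2a (1.16 and 1.099) and Gpr17 (-0.56 at both) lie near the line of equal change.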

How the data were processed

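Whole-number counts per gene were deposited by the authors in 1 table per tissue, not normalized, per the file headers. The submitters' processing notes name Trimmomatic, HISAT2, StringTie and DESeq2 and the build GRCm39, with no role for each. No source used here names the annotation release or the strand setting of counting. The SCN table lists 15759 genes, each with at least 1410 counts over 36 libraries, so weaker genes are absent from it. Symbols are those of the table. Overlaps and transcripts came from GENCODE M21 (GRCm38), matched by gene ID for 15726 of 15758 genes, so no coordinates are given. The 72 exon-bin files were not used.

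The 12 night libraries were fitted with edgeR 4.0.16 in R 4.3.3 (TMM, minimum count 10, robust quasi-likelihood) as time plus diet. Single times and their difference came from a model of 4 groups, and the contrast with other times from 12 groups in 36 libraries, where 2 unnumbered control libraries of CT8 entered as replicates of their group. limma 3.58.1 and DESeq2 1.42.0 were alternatives. Library totals and list sums were compared by exact two-sided permutation within time. The code was tested on simulated data. Chi-square values per degree of freedom between replicates were at least 41.1. p-values measure the spread between these mice.

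Named genes were the 10 leading called genes in each direction (mean of at least 1 CPM, same sign at both times), completed by smallest unadjusted p, called list members and 16 fixed genes. A few genes are not reported here. Members and lists were chosen with earlier results of these data known. Intervals come from fits over libraries, whose spread was well above counting error.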

Additional observations from a re-analysis of the deposited data

Results flagged for a closer look

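The diet effect on Mat2a differed between the night and the other times, by 1.23 log2 (edgeR adjusted p = 3.54e-07), as described in the report.

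Of 114 sets of 6 libraries of a diet (33 genes, 21 list sums, library totals and 2 measures of quality), 6 held a library far from the other 5 by Dixon's ratio at its 95% level, and chance flags about 1 in 20 groups. The control female at CT20 had 804 genes at 0 against 24 to 63 in the other controls, and a median correlation of 0.872 against 0.952 to 0.963. Igsf1 was at 53.0 CPM in the MCD female at CT20, below 63.4 to 67.1 CPM in the others. Gm15500 was at 153 CPM in control 1 at CT16, below 194 to 218 CPM. The summed methyl cycle list was at 1580 CPM in the control female at CT16 against 1450 to 1480 CPM in the other controls. The summed oligodendrocyte list was at 2450 CPM in MCD 2 at CT16 against 1870 to 2080 CPM in the other MCD libraries.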

How the results depend on the processing

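Mat2a was called for the night under 26 of 27 alternatives (1.05 to 1.23 log2; 1.05 to 1.20 without single libraries or numbers) and was not without replicate number 2 (1.099, adjusted p = 0.0951), where 8 libraries were left. Its excess over other times kept its call under each alternative tried. The Gpr17 call was lost under 17 of 27: -0.56 with the replicate block (adjusted p = 0.111), -0.56 with the replicate block of 6 pairs (0.264), -0.56 with 4 group means (0.0716), -0.54, -0.57 and -0.57 without replicate numbers 1, 2 and 3, -0.60 without the 3 libraries with most genes at 0 (0.22), and -0.57 to -0.53 without 10 of the single libraries (-0.59 to -0.53 over all 12). Whether the numbers pair the samples was not settled. Same-numbered pairs had r from -0.085 to 0.153, and differently numbered pairs from -0.141 to 0.196. Of 18 same-numbered pairs 3 had r over 0.1, and 6 of 12 libraries were best with their own number. Number 3 is also the female in each group. The count for the night was 1 with either replicate block, 1 with 4 group means, 1 without the 3 libraries with most genes at 0, 1 and 0 without replicate numbers 1 and 2, and 1 to 2 without single libraries. The count at CT16 (1) was 7 by DESeq2, 0 and 4 without numbers 2 and 3, 2 without those 3 libraries, 3 from the 6 libraries of that time, and 0 to 2 without single libraries. At CT20 (1) it was 9 by DESeq2, 0 with library totals, 0 with a sex term, 0, 0 and 2 without numbers 1, 2 and 3, 2 without those 3 libraries, 0 from the 6 libraries of that time, and 0 to 3 without single libraries (3 without MCD 1 at CT20). For CT20 minus CT16 (0) it was 8 by DESeq2, 1 and 3 without numbers 1 and 3, 2 without those 3 libraries, and 0 to 2 without single libraries. For night minus other times (1) it was 12 by DESeq2, 4 without number 3, and 1 to 4 without single libraries (4 without MCD 1 at CT20, 3 without control 1 at CT20). In liver 2461 to 5327 genes were called without single numbers (2495 without number 2). The replicate block left the counts at CT16, at CT20, between them and against other times as they were, and gave 6045 genes in liver.

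Directions that turned had no call on either side: Fos (0.07 without number 1), Avp (0.05 without number 1), Grp (-0.036 without number 3) and, without the 3 libraries chosen after seeing the data, Dbp (-0.0032). Without single libraries or numbers Avp ran from -0.148 to 0.094, Fos from -0.263 to 0.106, Grp from -0.036 to 0.206, Nr1d1 from -0.027 to 0.132 and Arntl from -0.098 to 0.0013. List medians moved by less than the spread between libraries in 503 of 504 alternatives, but 11 of the 21 changed sign under at least 1, among them SCN identity (13 of 24 alternatives), cold-inducible (8), core clock (7) and hypothalamus outside the SCN (from -0.26 to 0.30). The cause of these shifts was not tested. Replicate numbers were left out with the unnumbered CT8 libraries kept. The liver alternatives were added after seeing the data.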

Other observations

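Among the 25 genes whose 6 MCD libraries did not overlap the 6 controls, some of those not yet described were read after their values were seen, and each had an edgeR adjusted p of 1. Slc16a1, the monocarboxylate transporter that carries lactate, was at 28.02 and 23.4 CPM (-0.26 ± 0.09 log2), and Pcx, the pyruvate carboxylase of astrocytes, at 58.3 and 52.1 CPM (-0.16 ± 0.07). Utp20, of ribosome assembly, was at 13.7 and 10.0 CPM (-0.45 ± 0.14), and Prim1, the primase subunit, at 11.7 and 14.8 CPM (0.34 ± 0.11).

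The remaining lists held no called gene. Of 17 microglia genes 13 were lower (median -0.06 log2), and of 16 astrocyte genes 10 were higher (0.04). Of 20 endothelial and mural genes 11 were lower and 9 higher (-0.05). The lowest, Kcnj8 at -0.76, and the highest, Cspg4 at 0.52, are both genes of pericytes. Ependymal and choroid plexus genes (9 tested) had a median of 0.06, genes of hypothalamus outside the SCN (11 tested) 0.15, forebrain genes (8 tested) 0.15 and cold-inducible genes (3 tested) 0.02. Confidence intervals stayed within ±0.5 log2 for 9 of 17 microglia, 15 of 16 astrocyte and 10 of 20 endothelial and mural genes. They did so for 3 of 9 ependymal, 1 of 11 hypothalamic, 3 of 8 forebrain and 3 of 3 cold-inducible genes. Prok2, described above at its daily low, was at 8.75 ± 5.97 CPM on control and 51.2 ± 30.01 CPM on MCD at CT0 (n = 3 each; 2.54 ± 0.53 log2, edgeR adjusted p = 0.191 in the fit of 36 libraries).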
